A study of Mus musculus with 12 samples.

Results

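Malat1, Neat1 and Kcnq1ot1, 3 long noncoding RNAs that stay in the nucleus, and Gas5, Snhg1, Snhg6, Snhg8 and Snhg12, 5 noncoding host genes of small nucleolar RNAs (snoRNAs), were followed in intestinal stem cells (ISCs) of young and old mice. These 8 genes were taken by name from a count table of 54232 genes, and all 8 were among the 13368 genes with enough reads to test. The 12 libraries formed 4 groups of 3, with 1 female mouse per library. The SM6 groups came from wild-type C57/Bl6 mice at 2 months (SM6 young) and 22 months (SM6 old). The Lgr5-GFP groups came from Lgr5-EGFP-IRES-CreERT mice, spelled Lgr5-EGFP-IRES-CreERT2 in the methods of the study, at the same ages (Lgr5-GFP young and Lgr5-GFP old). SM6 names a sort on surface markers that gates against CD45 and CD31, while the reporter strain carries a fluorescent protein in the ISC gene Lgr5. Strain and isolation changed together and cannot be told apart. The protocol in the labels describes the surface marker sort for every library, whereas a legend of the study has reporter mice sorted by fluorescence, so the group names are used only as the sample titles give them.

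Malat1 is an abundant RNA of nuclear speckles, where splicing factors gather. Neat1 is the scaffold of paraspeckles, nuclear bodies that hold RNA-binding proteins, and is made as a short polyadenylated and a long form. Kcnq1ot1 is an imprinted antisense RNA that silences genes of its own cluster in cis. The snoRNA hosts are spliced in the nucleus, their introns release snoRNAs that guide the modification of ribosomal RNA, and the spliced exons of several hosts are removed in the cytoplasm by nonsense-mediated decay. Host genes such as Gas5 carry a 5′ terminal oligopyrimidine tract, a start of C and T bases shared with ribosomal protein genes. In the intestine, ISCs at the crypt base lie between Paneth cells and give rise to enterocytes, goblet cells and hormone-producing enteroendocrine cells.

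All 8 genes were placed on GRCm38. Malat1 (ENSMUSG00000092341, chr19:5795690-5802672) and Neat1 (ENSMUSG00000092274, chr19:5824708-5845478) are neighbouring lincRNAs on the minus strand. Kcnq1ot1 (ENSMUSG00000101609, chr7:143203458-143296549, minus strand) is annotated as antisense and lies within Kcnq1, which is on the plus strand and had 3297 counts over the 12 libraries. Gas5 (ENSMUSG00000053332, chr1:161034422-161038539, plus strand) holds 10 annotated snoRNA entries, and its start overlaps the start of Zbtb37 on the other strand, which had 55 counts. Snhg1 (ENSMUSG00000108414, chr19:8723475-8726443, plus strand) holds 8 snoRNA entries, Snhg12 (ENSMUSG00000086290, chr4:132308623-132311024, plus strand) holds 5, and Snhg6 (ENSMUSG00000098234, chr1:9941959-9944118, minus strand) and Snhg8 (ENSMUSG00000104960, chr3:123507552-123508404, minus strand) hold 1 each. Of these snoRNA entries, only Snord87 in Snhg6 had counts, 7 over the 12 libraries, and the others were at 0. The libraries were primed on poly(A) tails. Every entry at 0 overlapped an annotated exon of its host, while Snord87 did not, and the part of either in the counts of 0 was not tested. Whether reads were counted by strand is not stated, so reads of Kcnq1ot1 and Kcnq1, of Gas5 and Zbtb37, and of Snhg6 and Mcmdc2, a plus-strand gene with 4 counts that overlaps an exon of Snhg6, could not be separated here.

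The starts of the genes show what the hosts share. RefSeq (GRCm38.p6) gave start windows for 6 of the 8 genes, with 2 starts for Gas5 and none for Neat1 and Snhg6. Each window below runs 5′ to 3′ from 50 bases before the start, with the transcript starting at base 51. Capitals mark the letters TATA, which read the same on both strands, where they lie between 45 and 15 bases before the start, and the unbroken run of C or T that begins at the start. The motifs were chosen after the sequences had been seen.
Snhg1, chr19:8723437-8723516, plus strand: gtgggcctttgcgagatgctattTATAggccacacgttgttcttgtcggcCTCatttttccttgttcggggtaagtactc
Snhg12, chr4:132308628-132308707, plus strand: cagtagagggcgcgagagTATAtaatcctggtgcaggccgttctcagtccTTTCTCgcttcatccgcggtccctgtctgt
Gas5 (downstream start), chr1:161035116-161035195, plus strand: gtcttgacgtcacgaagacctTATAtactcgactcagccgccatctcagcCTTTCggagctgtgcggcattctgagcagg
Snhg8, chr3:123508307-123508386, minus strand: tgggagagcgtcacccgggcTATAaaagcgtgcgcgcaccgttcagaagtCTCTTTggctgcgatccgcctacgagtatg
Malat1, chr19:5802643-5802722, minus strand: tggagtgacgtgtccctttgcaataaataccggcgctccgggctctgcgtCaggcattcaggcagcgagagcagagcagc
Kcnq1ot1, chr7:143296518-143296597, minus strand: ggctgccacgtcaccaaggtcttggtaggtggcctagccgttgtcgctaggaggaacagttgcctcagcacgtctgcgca

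All 4 hosts with a window held TATA between 27 and 32 bases before a start, and the windows of Malat1 and Kcnq1ot1 did not hold it in that stretch. Of 32851 promoters in the table, 6.72% held TATA there. The starts of Gas5, Snhg8 and Snhg12 opened with at least 5 bases of C or T, as 4.44% of all starts in the table did, and 0.274% had both features. Snhg1 opened with 3 such bases, and the upstream start of Gas5 had neither feature. For Snhg6, the GENCODE vM21 transcript Snhg6-203 (chr1:9944089-9944118, minus strand) opened with a run of 7, in capitals, and was the 1 of 5 annotated Snhg6 transcripts shown because its run was the longest. By the same choice among its 18 GENCODE transcripts, Snhg1-201 opened with a run of 6 whose first base was T.
Snhg6-203, first 30 bases: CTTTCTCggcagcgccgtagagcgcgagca
These matches describe letters only.

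The ends of the transcripts bear on what poly(A) priming can read. The last 50 bases of 4 GENCODE vM21 transcripts are given 5′ to 3′ for the RNAs whose level passed a test, Neat1 and Snhg1, and for Malat1, with the polyadenylation signal letters AATAAA in capitals.
Neat1-202, the short form, chr19:5842307-5842356, minus strand: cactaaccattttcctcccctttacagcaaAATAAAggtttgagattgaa
Neat1-201, the long form, chr19:5824708-5824757, minus strand: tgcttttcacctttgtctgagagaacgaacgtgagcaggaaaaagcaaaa
Snhg1-211, chr19:8726394-8726443, plus strand: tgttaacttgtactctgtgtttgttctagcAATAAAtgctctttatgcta
Malat1-201, chr19:5795690-5795739, minus strand: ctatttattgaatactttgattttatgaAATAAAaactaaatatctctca
The letters were present at the end of the short Neat1 form, of Snhg1-211 and of Malat1-201, and were not in the last 50 bases of the long Neat1 form. Of all annotated transcripts of each gene, 11 of 18 for Snhg1, 3 of 4 for Malat1 and 1 of 4 for Neat1 held them there. Among all 141767 transcripts of the release, 26.6% held them in their last 50 bases. Malat1-201 also holds a run of 12 A near its annotated end, within the 42 bases at chr19:5795973-5796014 (minus strand). Snhg12-208 holds a run of 12 and Kcnq1ot1-201 a run of 41. An oligo(dT) primer could meet each of these runs. Where Malat1 ends in these cells, at the annotated end or before it, was not tested.
Malat1-201, run of A in capitals: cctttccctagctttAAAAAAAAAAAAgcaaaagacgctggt
The counts were made per gene, so the 2 forms of Neat1 cannot be told apart in the values below.

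The libraries held between 970472 and 3815425 counts each (median 1424340), and the 8 genes together took 0.331% to 0.539% of the counts. Levels are given in CPM (counts scaled to a common library size), with the sizes adjusted by the TMM method, a trimmed mean of log ratios between libraries. The ISC label was checked on 12 ISC markers, all of which were detected, among them Lgr5 with group means from 233 to 332 CPM. The summed ISC markers, in CPM of the library total without TMM, were lowest in SM6 old, at 7681 to 8714, against 13139 to 16860 in SM6 young. They were at 11491 to 14185 in Lgr5-GFP young and 12126 to 13629 in Lgr5-GFP old. Markers of other crypt cells were present in every group: alpha-defensins, the antimicrobial peptides of Paneth cells, took 1.26% to 23.2% of the counts, with SM6 old replicate 3 and Lgr5-GFP young replicate 1 above 20%. The 8 immune markers summed to 26.2 to 75.7 CPM of the library total, with Coro1a and Cd79a at 0 in all libraries, and the 8 stromal and endothelial markers to at most 6.18 CPM, with Col3a1, Dcn and Kdr at 0. The sorted cells are measured in bulk, so a change in the share of cells of a type and a change of RNA per cell cannot be told apart.

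**Figure D1:**
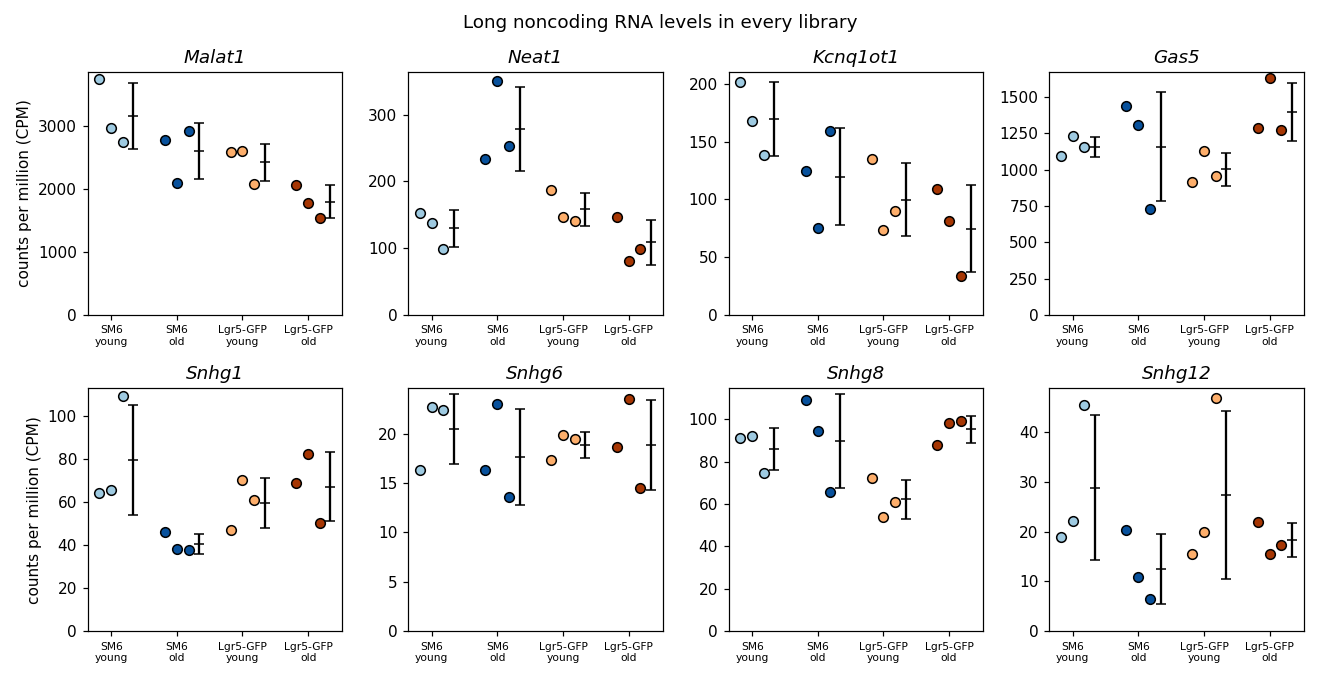
Level of each of the 8 RNAs in CPM (y axis, from 0) in every library (points) of the 4 groups (x axis), with the group mean and SD (bar and whisker, n = 3). Neat1 in SM6 old (233 to 350 CPM) sits above every other library, and Snhg1 in SM6 old (37.5 to 46.0 CPM) sits below every other library.

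Neat1 had the smallest p of the 8 RNAs in SM6 and in the difference of the age effects. In SM6 young it was at 153, 137 and 98.3 CPM, and in SM6 old at 233, 350 and 253 CPM. In Lgr5-GFP young it was at 187, 147 and 141 CPM, and in Lgr5-GFP old at 147, 80.5 and 98.4 CPM. All 3 SM6 old libraries were above the other 9, while the Lgr5-GFP groups met at 147 CPM. In SM6, Neat1 rose with age by 1.11 on the log2 scale, a 2.15-fold difference (SE 0.216, edgeR quasi-likelihood test, adjusted p = 0.00446). In Lgr5-GFP the difference was -0.54 (SE 0.220, unadjusted p = 0.0219, edgeR adjusted p = 0.404), which did not pass the test. The 2 age effects differed by -1.65 (Lgr5-GFP minus SM6, SE 0.309, edgeR adjusted p = 0.0103). Averaged over both isolations, the age effect on Neat1 was 0.28 (SE 0.154, edgeR adjusted p = 0.465).

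Markers of other crypt cell types that passed a test within an isolation were higher in SM6 old and lower in Lgr5-GFP old. Summed over 8 goblet cell markers, the level was 5908 to 9129 CPM in SM6 young and 14422 to 18208 in SM6 old, and 5562 to 11442 in Lgr5-GFP young and 3376 to 6019 in Lgr5-GFP old, in CPM of the library total. Of these 8 markers 5 rose with age in SM6, none passed in Lgr5-GFP, and for 3 (Agr2, Muc2 and Spink4) the 2 age effects differed. For the 9 Paneth cell markers, 1 rose in SM6, 2 fell in Lgr5-GFP and the effects differed for 9. Without Lgr5-GFP young replicate 1 the effects differed for 2 of these markers. The summed level ran from 13943 to 87810 CPM in SM6 young, 53760 to 262782 in SM6 old, 59535 to 262573 in Lgr5-GFP young and 24883 to 41557 in Lgr5-GFP old.

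Of the 8 enterocyte markers 5 rose in SM6, 2 fell in Lgr5-GFP and the effects differed for 5. In CPM of the library total, the summed ranges were 1574 to 1778 in SM6 young and 1757 to 8867 in SM6 old. They were 1281 to 2693 in Lgr5-GFP young and 1770 to 12397 in Lgr5-GFP old, so that the sum was not lower in Lgr5-GFP old. The enteroendocrine list had 1 gene that rose in SM6, and its summed level was 698 to 1424, 1007 to 2451, 116 to 199 and 61.8 to 162 CPM in the same order. Without 1 library, the counts of markers called in SM6 ran from 1 to 5 for goblet cells (lowest without SM6 young replicate 2), 0 to 3 for Paneth cells (0 in 5 of the 12 fits) and 1 to 6 for enterocytes (lowest without SM6 old replicate 1 or SM6 young replicate 2), and in Lgr5-GFP from 0 to 2, 0 to 8 and 0 to 3. The part of these cells in the result for Neat1 was not tested by marker. The call in SM6 held with the defensin share of each library as a covariate (log2 difference 1.01, edgeR adjusted p = 0.0157) and without both libraries over 20% defensin counts (1.18, edgeR adjusted p = 0.00266). The difference of the age effects did not pass with the defensin covariate (-1.36, edgeR adjusted p = 0.279) or with library totals in place of TMM (-1.30, edgeR adjusted p = 0.0548). It passed without both of those libraries (-1.57, edgeR adjusted p = 0.0228).

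**Figure D2:**
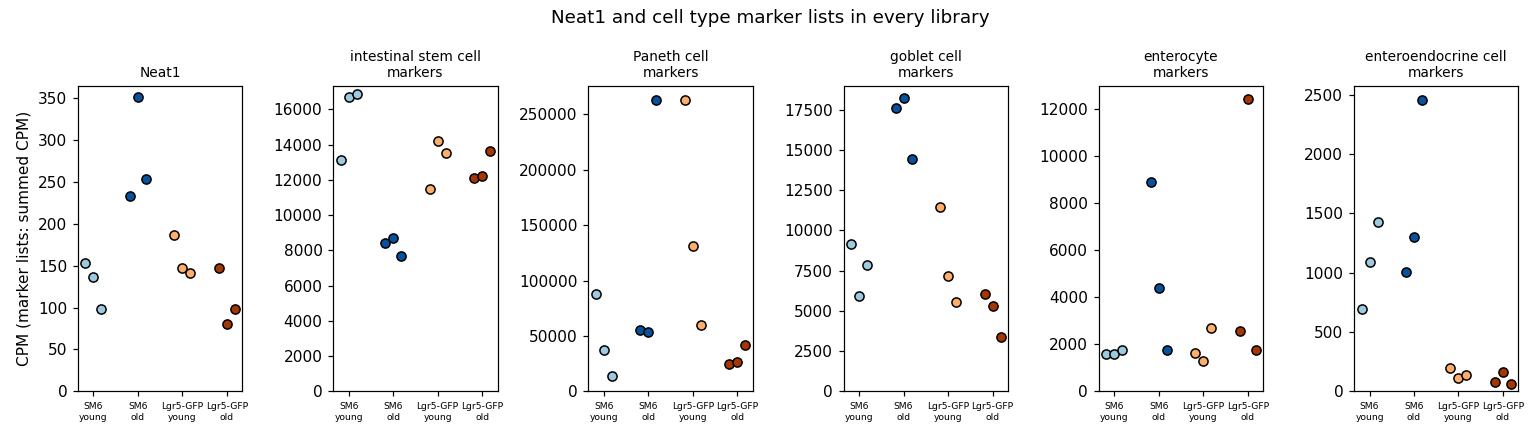
Neat1 in TMM-scaled CPM (left panel) and the summed CPM of 5 marker lists, in CPM of the library total (y axes, from 0), in every library (points) of the 4 groups. In SM6 old, Neat1 (233 to 350) and the goblet cell markers (14422 to 18208) lie above all other libraries and the ISC markers (7681 to 8714) lie below them.

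Malat1, the neighbour of Neat1, showed another pattern. It was at 3754, 2974 and 2748 CPM in SM6 young and at 2783, 2097 and 2928 in SM6 old. In Lgr5-GFP it was at 2587, 2607 and 2084 CPM in young and at 2072, 1778 and 1548 in old. The order of the group means was SM6 young, SM6 old, Lgr5-GFP young and Lgr5-GFP old, and only the last pair of neighbours did not overlap, with the nearest libraries at 2084 and 2072 CPM. The age effect was -0.28 in SM6 (SE 0.178, edgeR adjusted p = 0.564), -0.43 in Lgr5-GFP (SE 0.178, edgeR adjusted p = 0.413) and -0.36 on average (SE 0.126, edgeR adjusted p = 0.173). None of these passed. Malat1 was 1.37-fold lower in Lgr5-GFP than in SM6 averaged over the ages (log2 difference -0.46, SE 0.126, unadjusted p = 0.00138, edgeR adjusted p = 0.184), which did not pass either, although DESeq2 called it (-0.46, DESeq2 adjusted p = 0.0250).

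Kcnq1ot1 followed the same order of groups as Malat1. Its level was 202, 168 and 139 CPM in SM6 young and 125, 75.3 and 159 in SM6 old. It was 135, 73.7 and 90.2 CPM in Lgr5-GFP young and 109, 81.3 and 33.8 in Lgr5-GFP old. Neighbouring groups in this order overlapped in each case, while every SM6 young library was above every library of both Lgr5-GFP groups. The age effect was -0.51 in SM6 (SE 0.291, edgeR adjusted p = 0.493) and -0.42 in Lgr5-GFP (SE 0.301, edgeR adjusted p = 0.712), and the isolation effect was -0.70 (SE 0.210, edgeR adjusted p = 0.266). None passed the test. The isolation effect passed in 2 of 10 alternatives, without the filter on low counts (-0.69, edgeR adjusted p = 0.000305) and with the replicate block (-0.76, edgeR adjusted p = 0.0334), and the average age effect in 1 of 10, without the filter (-0.48, edgeR adjusted p = 0.0251). Without 1 library the age effect ran from -0.76 (without SM6 old replicate 3) to -0.26 (without SM6 old replicate 2) in SM6, and from -0.80 (without Lgr5-GFP old replicate 1) to -0.09 (without Lgr5-GFP old replicate 3) in Lgr5-GFP.

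Among the hosts, Snhg1 was the one whose level passed a test. It was at 64.3, 65.4 and 109 CPM in SM6 young and at 46.0, 38.0 and 37.5 in SM6 old, with no overlap. In Lgr5-GFP it was at 46.9, 70.0 and 60.8 CPM in young and at 68.6, 82.1 and 50.2 in old, where the groups overlapped. These levels rest on 47 to 151 counts per library. In SM6, Snhg1 fell by 0.97 on the log2 scale with age (SE 0.240, 1.95-fold, edgeR quasi-likelihood test, adjusted p = 0.0279). In Lgr5-GFP the difference was 0.21 (SE 0.232, edgeR adjusted p = 0.838), and the difference of the age effects was 1.17 (SE 0.334, edgeR adjusted p = 0.148), so it is not shown that the age effects of the isolations differ for Snhg1. That difference passed with library totals in place of TMM (1.51, edgeR adjusted p = 0.0475) and without the filter on low counts (1.16, edgeR adjusted p = 0.0296).

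The SM6 call for Snhg1 depended on single libraries. Without SM6 young replicate 3, the highest library at 109 CPM, the difference was -0.68 (edgeR adjusted p = 0.210). Leaving out SM6 old replicate 1, 2 or 3 gave -1.05, -0.92 and -0.91 (edgeR adjusted p = 0.0735, 0.130 and 0.0722). Adding the defensin share to the fit gave -0.66 (edgeR adjusted p = 0.218), and without both libraries over 20% defensin counts it was -0.91 (edgeR adjusted p = 0.0619).

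Gas5 was the host with the most reads, at 913 to 2914 counts per library. It was at 1093, 1229 and 1154 CPM in SM6 young and at 1436, 1310 and 729 in SM6 old. SM6 old replicate 3, a library with over 20% defensin counts, was the lowest of all 12. In Lgr5-GFP it was at 918, 1132 and 956 CPM in young and at 1290, 1629 and 1272 in old, with every old library above every young one. The age effect in Lgr5-GFP was 0.48 (SE 0.199, edgeR adjusted p = 0.414), and that in SM6 had a 95% interval from -0.39 to 0.39. Neither passed.

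Snhg8 had the same form in Lgr5-GFP, at 72.1, 53.9 and 60.8 CPM in young and at 88.0, 98.4 and 99.3 in old, again without overlap. In SM6 it was at 91.0, 92.0 and 74.4 CPM in young and at 109, 94.3 and 65.5 in old, which overlapped. The age effect was 0.59 in Lgr5-GFP (SE 0.195, unadjusted p = 0.00573, edgeR adjusted p = 0.246) and 0.06 in SM6 (SE 0.193, edgeR adjusted p = 0.947). Neither passed.

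Snhg6 and Snhg12 were at the lowest counts, where counting error is large. Snhg6 lay between 13.6 and 23.6 CPM in all libraries, on 15 to 55 counts, and its groups overlapped throughout. Its average age effect was -0.09 with a 95% interval from -0.50 to 0.32 (SE 0.210, edgeR adjusted p = 0.923). Snhg12 was at 18.8, 22.2 and 45.5 CPM in SM6 young and at 20.3, 10.9 and 6.39 in SM6 old, on 8 to 63 counts. In Lgr5-GFP it was at 15.4, 19.9 and 46.8 CPM in young and at 22.0, 15.4 and 17.4 in old. Replicate 3 was the highest library in both young groups. The age effect was -1.18 in SM6 (SE 0.442, unadjusted p = 0.0130, edgeR adjusted p = 0.202) and -0.89 on average (SE 0.304, unadjusted p = 0.00751, edgeR adjusted p = 0.151). Without 1 library these ran from -1.68 (without SM6 old replicate 1) to -0.71 (without SM6 young replicate 3) in SM6, and from -1.13 (without SM6 old replicate 1) to -0.54 (without Lgr5-GFP young replicate 3) on average. It passed in SM6 without the filter on low counts (-1.19, edgeR adjusted p = 0.0202), and in none of the other 10 alternatives. It passed on average without that filter (-0.90, edgeR adjusted p = 0.00613) and with the defensin covariate (-1.06, edgeR adjusted p = 0.00550).

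**Figure D3:**
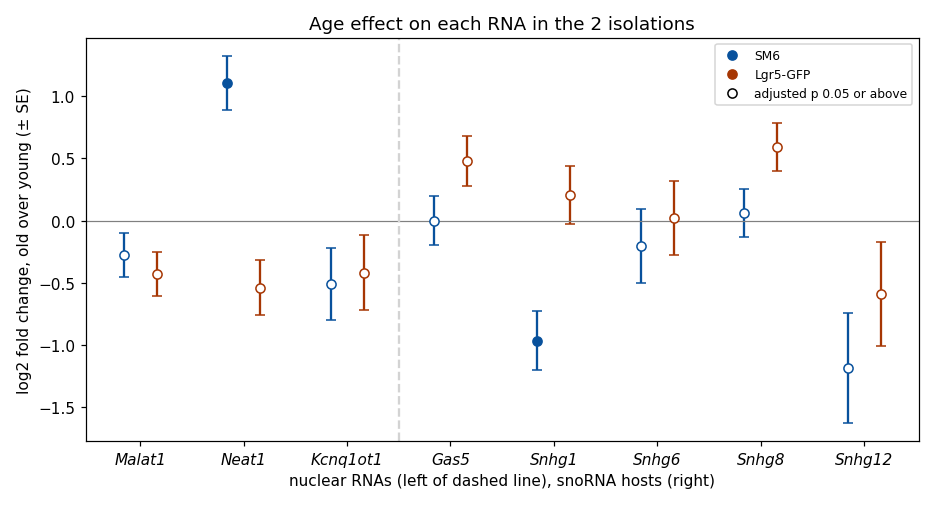
Log2 fold change of old over young with its SE (y axis) for each RNA (x axis) in SM6 (blue) and Lgr5-GFP (brown), from 1 edgeR fit over the 12 libraries; filled points passed at an adjusted p under 0.05. The 2 filled points are Neat1 at 1.11 and Snhg1 at -0.97, both in SM6.

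Read together, 2 of the 8 RNAs passed in SM6, against 2.42% of all genes tested, and 3 had an unadjusted edgeR p under 0.05 (Neat1, Snhg1 and Snhg12), against 13.1%. In Lgr5-GFP 0 of 8 passed by edgeR, DESeq2 or voom, against 0.471% of all genes by edgeR, and 4 had an unadjusted edgeR p under 0.05 (Malat1, Neat1, Gas5 and Snhg8), against 9.79%. The average age effect was called for 0 of 8 by edgeR, against 2.66%, with 5 at an unadjusted p under 0.05, against 12.8%. By other tools voom called 1 (Malat1, -0.36, limma adjusted p = 0.0467) and DESeq2 called 0. The age effects differed for 1 of 8, against 0.658%, with 2 at an unadjusted p under 0.05 (Neat1 and Snhg1), against 9.43%. By edgeR the isolations differed for 0 of 8, against 0.352%, with 3 at an unadjusted p under 0.05, against 7.69%, while DESeq2 called 1 (Malat1) and voom 0. The old and young libraries did not overlap for 2 of 8 in SM6 (17.5% of all genes) and for 3 of 8 in Lgr5-GFP (14.6% of all genes). The 2 sets had no gene in common: they were Neat1 and Snhg1 in SM6, and Malat1, Gas5 and Snhg8 in Lgr5-GFP. Between the isolations the libraries did not overlap for 3 of 8 at 2 months (Malat1, Kcnq1ot1 and Snhg8, each lower in Lgr5-GFP, 13.7% of all genes in either direction) and for 3 of 8 at 22 months (Malat1 and Neat1 lower and Snhg1 higher in Lgr5-GFP, 13.5% of all genes).

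The other noncoding snoRNA hosts gave a reference for the 5 hosts. Of 15 names 12 were matched and 10 tested, and none passed in any comparison. Their median average age effect was 0.04, beside -0.03 for all genes tested. The smallest p was that of Snhg18, at 0.39 (SE 0.133, edgeR unadjusted p = 0.00711, adjusted p = 0.148). Among 9 tested of 21 other nuclear or regulatory lncRNAs none passed, with a median of -0.06 on average. By isolation their median was -0.34 in SM6, with 8 of 9 below 0, and 0.08 in Lgr5-GFP, with 6 of 9 above 0. Tug1 had the smallest p in the average age effect, at -0.60 (SE 0.202, edgeR unadjusted p = 0.00672, adjusted p = 0.142). Of 23 protein-coding snoRNA hosts and 5′ oligopyrimidine genes outside the ribosomal proteins none passed, with a median of 0.08, and Eif4a1, a translation initiation helicase, had the smallest p at -0.33 (edgeR adjusted p = 0.212).

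Proteins that work with these RNAs included calls that were lower in old, as 77.5% of all 355 genes called on average were. Among 18 paraspeckle proteins, the partners of Neat1, the median age effect was -0.24 in SM6, beside -0.01 for all genes, and -0.01 in Lgr5-GFP, beside -0.03 for all genes, with 9 of the 18 above 0. Sfpq and Nono, core paraspeckle proteins, were at 0.16 and -0.36 on average (edgeR adjusted p = 0.673 and 0.226).

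Among 18 nuclear speckle proteins, Arglu1, a splicing modulator, fell by 1.06 on average (SE 0.133, edgeR adjusted p = 6.4e-05) and was called in both isolations, at -1.24 in SM6 (edgeR adjusted p = 0.000639) and -0.88 in Lgr5-GFP (edgeR adjusted p = 0.0326). The average and SM6 calls held in all 12 fits that each leave out 1 library, while the Lgr5-GFP call was lost in 5 of them, without Lgr5-GFP young replicate 1, 2 or 3 or Lgr5-GFP old replicate 1 or 3 (-1.10 to -0.73 over the 12 fits). The splicing factor Srsf2 fell by 0.83 in SM6 (SE 0.218, edgeR adjusted p = 0.0429), a call lost in 5 of 12 such fits, without SM6 young replicate 1, 2 or 3 or SM6 old replicate 1 or 2 (-0.93 to -0.74). Among 17 nonsense-mediated decay factors the central helicase Upf1 fell by 1.13 on average (SE 0.185, edgeR adjusted p = 0.000846), a call that held in all 12 such fits. Within SM6 it was called in 10 of these 12 fits (-1.37 to -0.98), and within Lgr5-GFP in 1 (-1.28 to -0.83). With all libraries, 0 of the 17 factors were called in Lgr5-GFP. Among 16 snoRNP and nucleolar proteins Gar1, a component of H/ACA snoRNPs, fell by 0.55 on average (SE 0.145, edgeR adjusted p = 0.0369). That call held in 4 of 12 such fits, namely without Lgr5-GFP young replicate 2, SM6 old replicate 3 or SM6 young replicate 1 or 3, and was lost in the other 8 (-0.64 to -0.39). The medians of the average age effect in these 4 lists ran from -0.23 to -0.08, beside -0.03 for all genes tested.

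**Figure D4:**
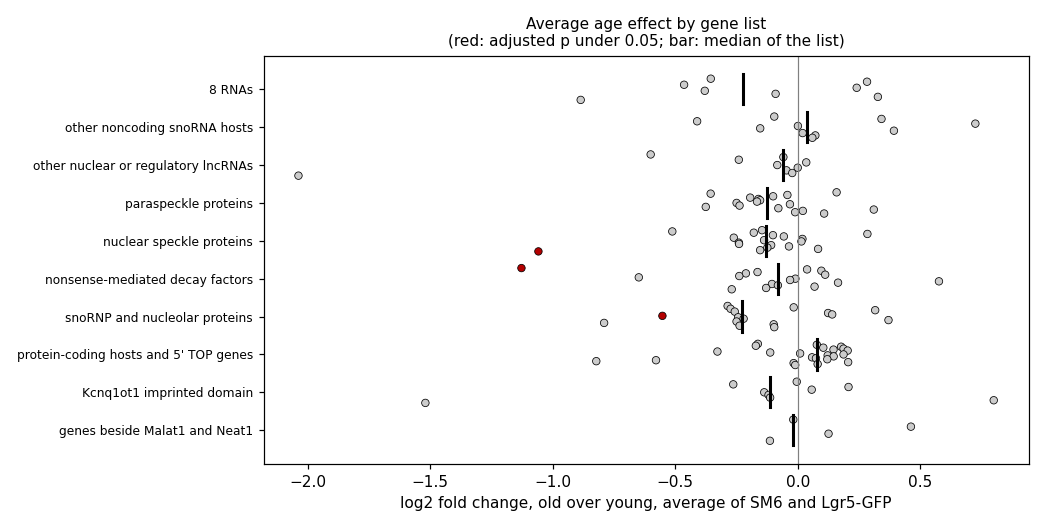
Average age effect as log2 fold change of old over young (x axis) of the tested genes (points) in each list (rows), with the median of all tested genes of the list (bar); genes that are not reported here are not drawn. The red points passed at an edgeR adjusted p under 0.05 and are Arglu1, Upf1 and Gar1, at -1.06, -1.13 and -0.55.

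Genes in the surroundings of the nuclear RNAs did not pass. Of 7 genes beside Malat1 and Neat1, 5 were tested and 0 called in each comparison, with a median average age effect of -0.02. Of 12 genes of the Kcnq1ot1 imprinted domain 9 were tested and 0 called, and their median average age effect was -0.11. Kcnq1, which contains Kcnq1ot1, was at -0.0043 (SE 0.126, edgeR adjusted p = 0.999), and the cell cycle inhibitor Cdkn1c, a gene of the domain, was at -0.26 (edgeR adjusted p = 0.904). The channel gene Trpm5 had the smallest p of the domain (-1.52, edgeR adjusted p = 0.493).

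Covariation between mice was measured on deviations of log2 CPM from the group mean over the 12 libraries. Of 28 pairs of the 8 RNAs, 0 passed an exact permutation test within groups (1296 arrangements, two-sided) after adjustment over the pairs by either Pearson's r or Spearman's rho, and 1 had an unadjusted p under 0.05 by r and 3 by rho. The pair by r was Malat1 and Kcnq1ot1, with Pearson's r 0.75 (exact permutation p = 0.0193, adjusted p = 0.540) and Spearman's rho 0.70 (exact permutation p = 0.0316, adjusted p = 0.295). Without the 2 libraries farthest from the median of Malat1, r was 0.74. The other pairs by rho were Gas5 and Snhg6 (rho 0.75, exact permutation p = 0.0216, adjusted p = 0.295) and Gas5 and Snhg1 (rho 0.59, exact permutation p = 0.0231, adjusted p = 0.295). Their r was 0.66 (exact permutation p = 0.12, adjusted p = 0.634) and 0.39 (exact permutation p = 0.0841, adjusted p = 0.634), or 0.83 and 0.45 without the 2 libraries farthest from the median of Gas5. For Malat1 and Neat1 r was 0.25 (exact permutation p = 0.499, adjusted p = 0.874) and rho 0.19 (exact permutation p = 0.617, adjusted p = 0.863). As a description, the median r was 0.25 over the 3 pairs of nuclear RNAs, 0.40 over the 10 pairs of hosts and -0.14 over the 15 pairs across the 2 kinds.

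**Figure D5:**
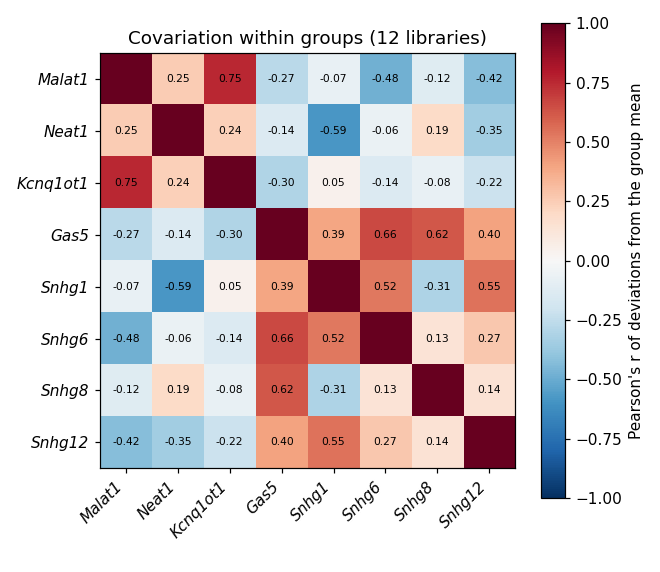
Pearson's r of deviations from the group mean between each pair of RNAs (rows and columns, colour and printed value) over 12 libraries. The block of hosts holds values from -0.31 (Snhg1 and Snhg8) to 0.66 (Gas5 and Snhg6), and the block of nuclear RNAs values from 0.24 to 0.75.

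The genes most like each RNA over all 12 libraries, group differences included, were read from Pearson's r of log2 CPM among 8327 genes with a mean of at least 10 CPM, as a description over libraries that share their groups and depth. Neat1 was most like Uqcrc1 (r = 0.92), a subunit of respiratory complex III, Apol10a (0.92) and the sugar transporter Slc50a1 (0.92). Malat1 was most like Rnf214 (0.91), Kcnq1ot1 (0.88) and 4933434E20Rik (0.87). Kcnq1ot1 was most like Nav2 (0.93), Ahcyl2 (0.93) and the splicing factor Srsf2 (0.91).

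For the hosts, Gas5 was most like 2410006H16Rik (0.90), the ribosomal protein gene Rpl4 (0.90) and the Polycomb gene Bmi1 (0.89). Snhg1 was most like Cat (0.90), which encodes catalase, Cep162 (0.84) and Micu2 (0.84). Snhg6 was most like Thg1l (0.91), Plekha3 (0.88) and Patj (0.85), and Snhg8 most like Slc25a24 (0.91), Plgrkt (0.89) and Herc2 (0.88). Snhg12 was most like Actr6 (0.87), Sltm (0.86) and Nsrp1 (0.85).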

How the data were processed

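ISCs had been sorted from mouse small intestine, and 3′ RNA-seq libraries had been made from them by poly(A) priming. Per the methods and the submitters' processing notes, the authors aligned reads to GRCm38 with STAR 2.4.2a and counted them over exons of GENCODE vM15 genes with featureCounts. The deposited values are these raw counts. Whether reads with the same molecular identifier were collapsed, and whether strand was used, is not given in the sources used here. Positions and transcripts came from GENCODE vM21 and start windows from RefSeq, both on GRCm38.

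Genes with more than 5 reads and at least 1 CPM in at least 1 library were kept (13368). Counts were fitted in R 4.3.3 with edgeR 4.0.16 (TMM, glmQLFit and glmQLFTest, 1 mean per group, all 12 libraries), two-sided, with Benjamini-Hochberg adjustment over all genes tested. Calls were made below an adjusted p of 0.05. Limma 3.58.1 (voom with sample quality weights) and DESeq2 1.42.0 were alternatives, and the script was tested on simulated counts. The study had tested differential expression on other libraries only. Correlations and figures were made with Python 3.11.15, scipy 1.17.1 and matplotlib 3.10.9. Intervals given at 95% are 1.96 SE of the edgeR fit on each side, which include the spread between mice. Library totals were 970472 to 3815425 counts, and every pair of replicates differed beyond sampling noise.

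The 8 RNAs and all lists were chosen with earlier results of these data known. All 8 RNAs were named in every comparison. From each other list, up to 3 called genes in each direction by smallest p were to be named, or the gene with the smallest p where none was called, and for each RNA the 3 genes of highest r. Some results that this rule would name are not reported here. Further genes (Sfpq, Nono, Kcnq1, Cdkn1c, and genes named for single isolations) were chosen after their values were seen. Snhg4, Snhg7, Snhg16, Norad and Oip5os1 were not matched to the table.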

Additional observations from a re-analysis of the deposited data

Results flagged for a closer look

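The age effects on Neat1 in the 2 isolations differed, by -1.65 on the log2 scale (Lgr5-GFP minus SM6, SE 0.309, edgeR quasi-likelihood interaction, adjusted p = 0.0103). All 3 SM6 old libraries were above all 3 SM6 young libraries, and 2 of the 3 Lgr5-GFP old libraries were below all 3 Lgr5-GFP young libraries. Leaving out each library in turn gave -1.94 to -1.45, with an edgeR adjusted p of at most 0.0389. The difference passed in 8 of 10 alternatives and was lost with the defensin share of each library as a covariate (-1.36, edgeR adjusted p = 0.279) and with library totals in place of TMM (-1.30, edgeR adjusted p = 0.0548). The age effects also differed in the same direction for 9 of 9 Paneth cell, 3 of 8 goblet cell and 5 of 8 enterocyte markers. Without 1 library these counts ran from 2 to 9 for Paneth cells (lowest without Lgr5-GFP young replicate 1) and 3 to 5 for goblet cells, and stayed at 5 for enterocytes.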

How the results depend on the processing

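Up to 11 alternatives and 12 fits that each leave out 1 library were run for each RNA. The rise of Neat1 in SM6 kept its call in all of them. Without 1 library the log2 difference was 0.91 to 1.24, lowest without SM6 old replicate 2. The edgeR adjusted p in those fits reached 0.0493, just under the threshold. The lost calls for Snhg1 in SM6 and for the difference in Neat1 stand beside those results, and Snhg1 ran from -1.10 to -0.68 without 1 library. Of the values that did not pass, Malat1 in SM6 ran from -0.37 to -0.14 and Neat1 from -0.83 to -0.36 in Lgr5-GFP and 0.14 to 0.37 on average. The fits without both libraries over 20% defensin counts were chosen after seeing the data. Snhg6 and Snhg12 are limited by their counts. The causes of the changes below were not tested, except that a fit without the filter tested more genes.

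With library totals in place of TMM, the median of all genes moved from -0.01 to -0.16 in SM6 and from -0.03 to 0.16 in Lgr5-GFP, and the share of lower values among the calls moved from 73.4% to 85.0% in SM6, from 60.3% to 39.2% in Lgr5-GFP and from 92.0% to 54.0% for the difference of the age effects.

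Of the 8 RNAs, 1 was called in SM6 with the defensin covariate and 1 without both high-defensin libraries. On average over age, 1 was called with the defensin covariate (Snhg12), 1 by voom (Malat1) and 2 without the filter (Kcnq1ot1 and Snhg12). For the difference of the age effects, 0 were called with the defensin covariate and 2 without the filter (Neat1 and Snhg1). Between the isolations, 1 was called by DESeq2 and 1 with the defensin covariate (Malat1 in both), and 3 without the filter. Over all genes, the calls of the likelihood ratio test were 527 in SM6, 173 in Lgr5-GFP, 158 for the difference and 113 between the isolations, against 323, 63, 88 and 47. Without the filter they were 603, 274, 224 and 131, and 590 on average against 355. In Lgr5-GFP they were 28 with the defensin covariate and 97 with library totals, for the difference 34 with the covariate, and between the isolations 28 by voom. Without 1 library the calls ran from 145 to 404 in SM6, 26 to 113 in Lgr5-GFP, 228 to 471 on average, 41 to 98 for the difference and 26 to 61 between the isolations, and 1 to 2 of the 8 RNAs were called in SM6.

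Values that changed sign had not passed a test. With the defensin covariate these were Snhg6 in SM6 (0.025), Kcnq1ot1 (0.040), Snhg1 (-0.24) and Snhg6 (-0.36) in Lgr5-GFP, the differences of Malat1 (0.29), Gas5 (-0.039), Snhg6 (-0.39) and Snhg12 (-1.29), and Snhg6 between the isolations (0.012). With library totals they were Gas5 (-0.11) and Snhg8 (-0.063) in SM6, the difference of Malat1 (0.21) and Snhg6 between the isolations (0.011). Without both high-defensin libraries they were Snhg6 in Lgr5-GFP (-0.039), the differences of Snhg6 (-0.0032) and Snhg12 (-0.042), and Gas5 between the isolations (-0.046). Without the filter they were Gas5 in SM6 (-0.0075) and Snhg6 in Lgr5-GFP (-0.0030), by voom Snhg6 in Lgr5-GFP (-0.00021) and Gas5 between the isolations (-0.016), and with at least 1 CPM in 3 libraries Snhg6 between the isolations (0.0040).

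Fits without 1 library also changed the sign of Gas5 in SM6 (-0.17 to 0.25), Snhg8 in SM6 (-0.082 to 0.25), Snhg6 (-0.16 to 0.17) and Snhg12 (-0.92 to 0.10) in Lgr5-GFP, the difference of Kcnq1ot1 (-0.29 to 0.42), and Gas5 (-0.075 to 0.14), Snhg6 (-0.11 to 0.11) and Snhg12 (-0.086 to 0.53) between the isolations. The correlation of Malat1 and Neat1 ran from -0.0078 to 0.71.

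The sample titles do not say whether replicate numbers pair the mice. Within an isolation, the deviations of the 6 young and old pairs with the same number had r from -0.04 to 0.02. With 3 libraries per group this cannot exclude a pairing, and pairs across the isolations were not compared. With the number as a block, 95 genes were called in Lgr5-GFP and 73 between the isolations, where 1 of the 8 RNAs was called (Kcnq1ot1, -0.76, edgeR adjusted p = 0.0334). With the block the signs changed for Gas5 in SM6 (-0.055), Snhg6 in Lgr5-GFP (-0.014) and Snhg6 between the isolations (0.0075), and no other call on the 8 RNAs changed.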
